A study of Mus musculus with 20 samples.

Results

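The 7 oligodendrocyte lineage transcription factors Olig1, Olig2, Sox10, Sox8, Nkx2-2, Myrf and Zfp488 were followed across neural stem cells (NSC) and 4 progenitor populations sorted from the neonatal mouse periventricular zone. The members were chosen by gene name. Each name had 1 row in the deposited table, so that 7 of 45705 genes are described, and all 7 passed the filter on low values. Tissue came from Swiss Webster mice at postnatal day 5, with whole litters pooled and both sexes together, and none of the groups carried a transgene or received a treatment. Dissociated live cells were sorted by 4 surface antigens: CD133, CD15 (also called LeX), CD140a (the protein of Pdgfra) and NG2 (the protein of Cspg4). NSC were CD140a- NG2- CD133+ CD15+. BNAP/GRP1 were CD140a- NG2+ CD133- CD15+, and GRP2/MP3 were CD140a- NG2+ CD133- CD15-. GRP3 were CD140a+ NG2+ CD133- CD15-, and PFMP were CD140a+ NG2+ CD133- CD15+. Each population was sequenced in batches 1 to 4, which gave 5 populations of 4 libraries and 20 libraries in all. A gene's level is its RPKM, a read count divided by the length of the gene and by the size of the library, and values by library are given in the order of batches 1, 2, 3 and 4.

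Oligodendrocyte precursor cells (OPCs) express CD140a and NG2, divide in the neonatal brain and later turn into the cells that wrap axons in myelin. Olig2, a basic helix-loop-helix factor, specifies the lineage, and the related Olig1 promotes its maturation. Sox10 and Sox8 belong to the SoxE group of HMG-box factors, which keep the lineage and switch on myelin genes. Nkx2-2, a homeodomain factor, acts on the timing of differentiation. Zfp488, a zinc finger factor enriched in the lineage, and Myrf, a membrane-bound factor that is cleaved to release its nuclear part, act in differentiation, and Myrf is needed for the transcription of myelin genes.

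Olig1 and Olig2 are neighbours on the plus strand of chromosome 16 (GRCm38, GENCODE). Olig2 (ENSMUSG00000039830) lay at 91225457 to 91228677 and Olig1 (ENSMUSG00000046160) at 91269772 to 91271933, with 41094 bases between them. The other members lay apart, all on the minus strand: Sox10 (ENSMUSG00000033006) on chromosome 15 at 79154908 to 79165240, Sox8 (ENSMUSG00000024176) on chromosome 17 at 25565892 to 25570686, and Nkx2-2 (ENSMUSG00000027434) on chromosome 2 at 147177546 to 147194243. Myrf (ENSMUSG00000036098) lay on chromosome 19 at 10208272 to 10240748 and Zfp488 (ENSMUSG00000044519) on chromosome 14 at 33967070 to 33978764.

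Olig1 and Olig2, and Sox8 and Sox10, are pairs of related genes. The longest stretch that their coding sequences share was therefore read from the GENCODE transcripts. It shows whether a read of 75 bases could match both members of a pair without a mismatch. The runs are printed in the direction of the transcript.
Olig1 and Olig2: aagatcaacagccgcga
Sox8 and Sox10: gccttcatggtgtgggcacaggcggc
The Olig run was 17 bases long (coding bases 292 to 308 of Olig1 and 334 to 350 of Olig2) and the Sox run was 26 bases long (coding bases 313 to 338 of Sox8 and 328 to 353 of Sox10). Both were shorter than a read, and no longer run was shared by the whole transcripts compared. For each gene, the transcript with the longest coding part was used, and reads that align with mismatches were not examined.

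RefSeq start sites (GRCm38.p6) were matched for Olig2, Sox8, Nkx2-2 and Zfp488, and not for Olig1, Sox10 and Myrf. The 250 bases before each start were searched on both strands for the E-box CANNTG, the core letters bound by basic helix-loop-helix factors such as Olig1 and Olig2, for ACAAAG or ACAATG, letters bound by SOX factors, and for AAGTG, the core letters of NKX2 factors. The windows of 3 members are shown so that members of the group can be set side by side, without the bases that an exon of the same gene covers, and capitals mark E-box and SOX matches.
Olig2, chr16:91225300-91225456, plus strand: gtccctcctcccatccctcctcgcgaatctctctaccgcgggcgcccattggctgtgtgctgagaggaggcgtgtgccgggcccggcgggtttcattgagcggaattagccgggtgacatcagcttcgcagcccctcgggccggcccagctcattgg
Sox8, chr17:25570687-25570936, minus strand: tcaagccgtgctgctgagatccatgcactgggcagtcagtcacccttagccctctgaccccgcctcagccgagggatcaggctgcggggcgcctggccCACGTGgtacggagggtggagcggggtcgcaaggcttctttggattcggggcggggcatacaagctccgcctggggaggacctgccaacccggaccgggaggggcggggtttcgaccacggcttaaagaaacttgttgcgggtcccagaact
Nkx2-2, chr2:147186456-147186652, minus strand: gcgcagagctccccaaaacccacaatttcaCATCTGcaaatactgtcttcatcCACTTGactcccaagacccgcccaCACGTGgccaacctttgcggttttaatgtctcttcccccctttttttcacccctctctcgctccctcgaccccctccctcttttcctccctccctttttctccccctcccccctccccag
The Sox8 window held 1 E-box, and the Nkx2-2 window held 3 E-boxes and 1 AAGTG, read on the other strand within the second E-box. The Olig2 window of 250 bases held 1 SOX match, which lay past the printed bases, and the Zfp488 window held no match to any of the letters. Over 32851 RefSeq promoters of the same length, 66.2% held an E-box, 25.2% a SOX match and 40.7% AAGTG, so such matches are common. The Nkx2-2 window lay within the span of Nkx2-2 given above, and the Sox8 window overlapped exonic bases of the antisense gene 2810468N07Rik. A match is a description of letters and not of binding.

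The libraries differed in ways that touch the values below. Summed RPKM ran from 955067 to 2407643 and genes above 0 from 20116 to 39689. The read totals behind the RPKM are unknown. In batch 3 the summed level of 9 lung epithelium markers was 919.7 to 1043 RPKM in all 5 populations, with 8 or 9 of them above 0, against 0.536 to 79.8 RPKM elsewhere, and every member but Myrf was at its lowest there in each population. The same batch carried 2640 to 2963 RPKM of 12 microglial markers in every population. In batch 4, the median of 1101 olfactory receptor genes, a measure chosen after the values were seen, was 7.86 RPKM in BNAP/GRP1, with a 95th percentile of 14.4, and Olig1, Olig2, Nkx2-2 and Myrf stood above that percentile while Sox10, Sox8 and Zfp488 lay below it. Fewer members, 3 of 7, stood above the same percentile in BNAP/GRP1 of batch 2, where it was 5.42 RPKM, and in GRP2/MP3 of batch 1, where it was 1.52 RPKM. Against the labels, the NSC libraries carried 1815 to 18147 RPKM of 10 ependymal markers, with all 10 above 0 in each. Outside batch 3, microglial markers summed to 167 to 9262 RPKM in BNAP/GRP1 and GRP2/MP3 and to 19.4 to 147 RPKM in the other populations, with all 12 above 0 in every library. The sum of 8 pericyte markers there was 460.9 to 7475 RPKM in GRP2/MP3 and 5.85 to 203.4 RPKM in the other populations. With batch as a block, 5 of the 8 passed as higher than NSC in GRP2/MP3, beside 0.174% of all genes. The part of these signals in the results was not tested. In sorted pools, fewer cells of a type and less RNA per cell cannot be told apart.

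Olig1 was the most abundant member in 15 of the 20 libraries. In NSC its level was 9.47, 11.5, 1.22 and 9.88 RPKM. It was 33.6, 24.1, 0.926 and 25.3 RPKM in BNAP/GRP1 and 6.63, 20.03, 0.211 and 64.2 RPKM in GRP2/MP3. In GRP3 it was 1064, 897, 7.70 and 240.2 RPKM, and in PFMP 489.6, 1311, 7.54 and 109.7 RPKM. In batches 1, 2 and 4, GRP3 and PFMP stood above every library of the other populations without overlap, whereas the batch 3 libraries of GRP3 and PFMP fell below the highest NSC library. Within batch 3, GRP3 and PFMP were nevertheless above the other populations. Here and for the members below, the share of all genes that stand apart in this way was not counted, so overlap only describes the values. The mean was 552 ± 508 RPKM in GRP3 and 8.01 ± 4.61 RPKM in NSC (SD, n = 4 each). On the scale log2(RPKM + 1), on which all differences below are given, the difference of GRP3 from NSC was 4.82 ± 1.57 (standard error, n = 4 and 4) with adjusted p = 0.274 in limma, and that of PFMP was 4.39 ± 1.57 with adjusted p = 0.371. With batch as a block, the adjusted p fell to 0.00098 and 0.0023, with intervals of 3.18 to 6.46 and 2.75 to 6.03.

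**Figure D1:**
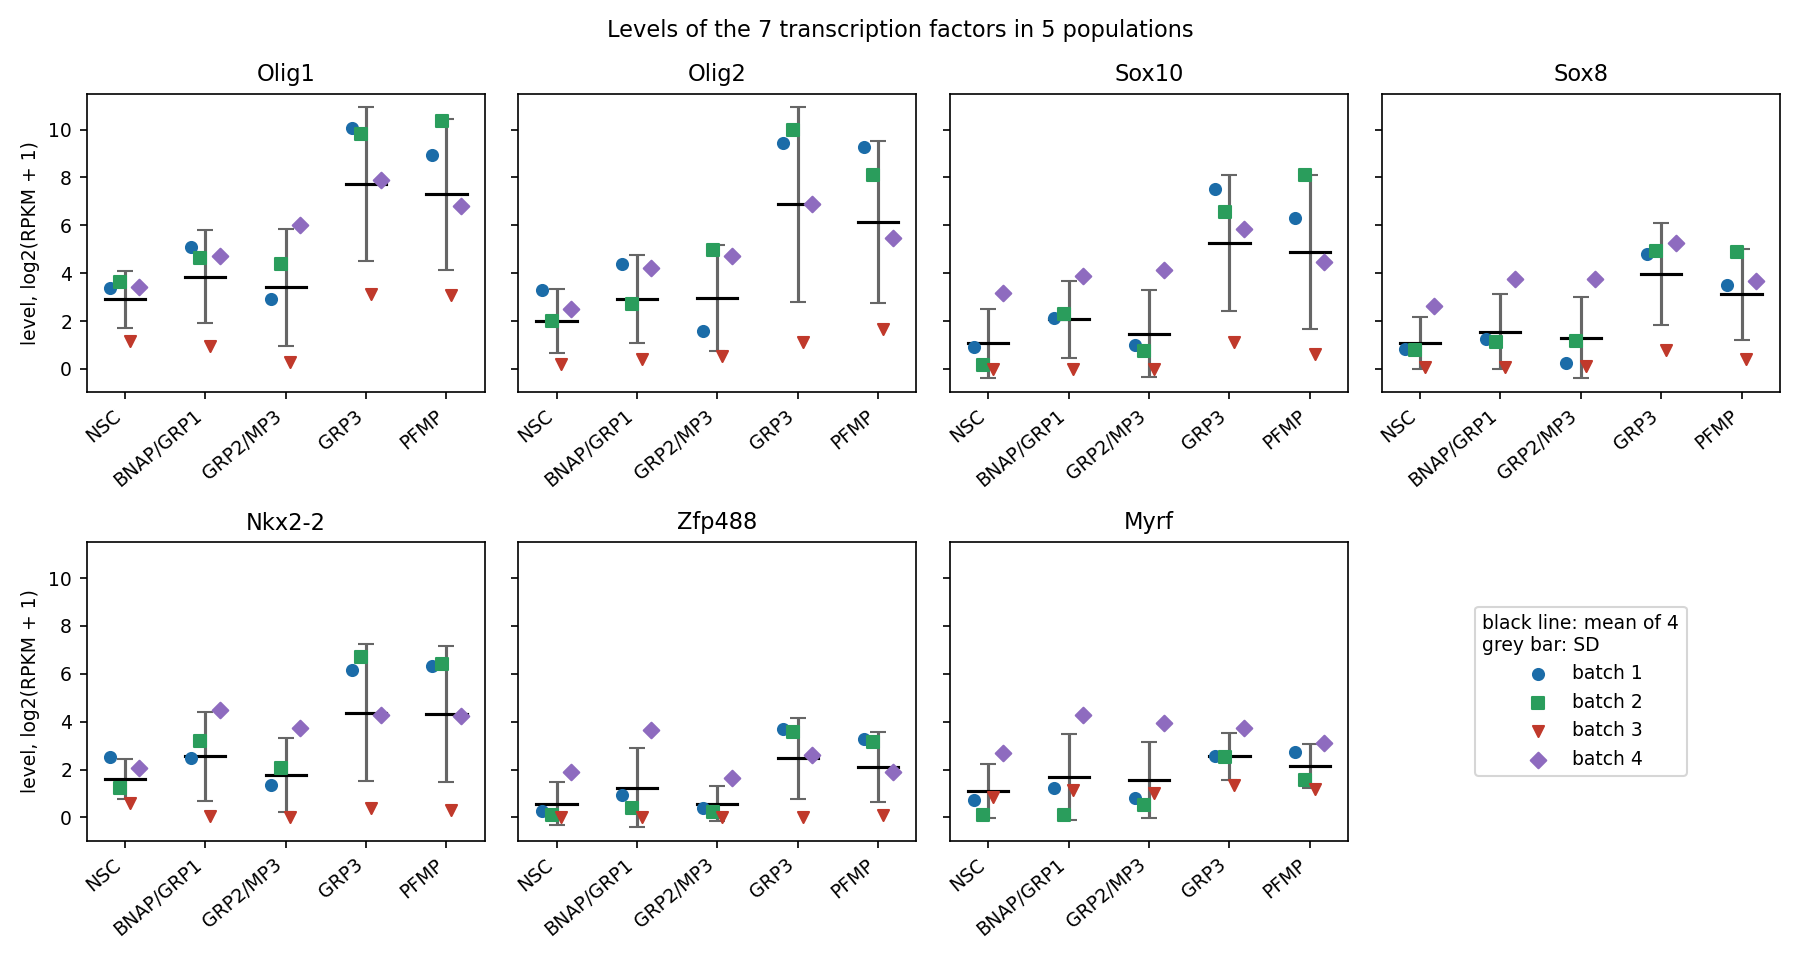
Levels of the 7 transcription factors as log2(RPKM + 1), vertical axis, in 5 populations, horizontal axis, with a point for each library coloured by batch, a black line at the mean of the 4 libraries and a grey bar for their SD. Olig1 in GRP3 and PFMP was between 110 and 1311 RPKM in batches 1, 2 and 4 and under 8 RPKM in batch 3.

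Olig2 was likewise highest in GRP3 and PFMP within each batch. Its NSC levels were 8.92, 3.06, 0.144 and 4.67 RPKM. BNAP/GRP1 held 19.8, 5.63, 0.340 and 17.4 RPKM of it and GRP2/MP3 2.04, 29.9, 0.468 and 25.5 RPKM. GRP3 reached 703, 1025, 1.18 and 118 RPKM and PFMP 622, 277, 2.19 and 42.9 RPKM. Batches 1, 2 and 4 of GRP3 and PFMP again did not overlap the other populations, and the nearest library of another population was GRP2/MP3 of batch 2, at 29.9 RPKM. The difference from NSC was 4.86 ± 1.71 in GRP3 (adjusted p = 0.382, and 0.00986 with batch as a block) and 4.13 ± 1.71 in PFMP (adjusted p = 0.603, and 0.032 with the block). Olig1 stood above Olig2 in 16 of the 20 libraries, and Olig2 stood above Olig1 in GRP2/MP3 of batches 2 and 3, in GRP3 of batch 2 and in PFMP of batch 1.

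Of the SoxE factors, Sox10 in NSC was 0.884, 0.135, 0.00610 and 7.90 RPKM. It was 3.33, 3.91, 0 and 13.7 RPKM in BNAP/GRP1 and 1.01, 0.671, 0 and 16.5 RPKM in GRP2/MP3, where a 0 says only that the gene is listed at 0. In GRP3 it was 185, 92.2, 1.19 and 55.9 RPKM and in PFMP 78.7, 276, 0.545 and 21.0 RPKM. The CD140a+ populations were highest within every batch, and batches 1, 2 and 4 of these populations did not overlap the rest, although the lowest of them, 21.0 RPKM in PFMP of batch 4, was close to the 16.5 RPKM of GRP2/MP3 in that batch. The difference from NSC was 4.19 ± 1.44 in GRP3 (adjusted p = 0.353, and 0.0238 with batch as a block) and 3.82 ± 1.44 in PFMP (adjusted p = 0.446, and 0.0427 with the block).

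Sox8 stood below Sox10 in every GRP3 and PFMP library. NSC held 0.760, 0.709, 0.0678 and 5.18 RPKM, BNAP/GRP1 1.39, 1.21, 0.0565 and 12.6 RPKM and GRP2/MP3 0.185, 1.23, 0.0789 and 12.4 RPKM. GRP3 held 27.3, 29.9, 0.709 and 37.6 RPKM and PFMP 10.5, 28.6, 0.338 and 11.8 RPKM. Outside batch 3, GRP3 was above every library of NSC, BNAP/GRP1 and GRP2/MP3, and PFMP was above NSC but overlapped BNAP/GRP1 and GRP2/MP3, whose batch 4 libraries reached 12.6 and 12.4 RPKM. The BNAP/GRP1 value lay below the 95th percentile of olfactory receptor genes in its library, 14.4 RPKM. The GRP2/MP3 value lay above that of its own library, 1.29 RPKM. The difference from NSC was 2.88 ± 1.12 in GRP3 (adjusted p = 0.525, and 0.0207 with batch as a block). In PFMP it was 2.05 ± 1.12, with adjusted p = 1, and 0.132 with the block. With batch 3 left out it was 3.61 in GRP3, with adjusted p = 0.0665.

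Nkx2-2 differed in its pattern from batch to batch. In NSC it was 4.74, 1.32, 0.540 and 3.18 RPKM, in BNAP/GRP1 4.61, 8.15, 0.0331 and 21.5 RPKM and in GRP2/MP3 1.56, 3.16, 0 and 12.3 RPKM. It was 70.2, 103, 0.315 and 18.3 RPKM in GRP3 and 79.0, 83.8, 0.250 and 17.8 RPKM in PFMP. In batches 1 and 2 the CD140a+ populations stood at 70.2 RPKM or above and all others at 8.15 or below, in batch 4 the BNAP/GRP1 library was the highest of the 5, and in batch 3 the NSC library was. The difference from NSC was 2.78 ± 1.35 in GRP3 (adjusted p = 0.908, and 0.0969 with batch as a block) and 2.72 ± 1.35 in PFMP (adjusted p = 0.918, and 0.102 with the block). With batch 3 left out of every population it was 3.78 in GRP3 (adjusted p = 0.0333) and 3.72 in PFMP (adjusted p = 0.0351).

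The differentiation factors Zfp488 and Myrf were the least abundant members in GRP3 by mean RPKM and the nearest to NSC. Zfp488 was 0.208, 0.0672, 0.0111 and 2.75 RPKM in NSC, 0.896, 0.325, 0.00387 and 11.5 RPKM in BNAP/GRP1 and 0.304, 0.186, 0.00997 and 2.17 RPKM in GRP2/MP3. It was 11.9, 10.8, 0.00598 and 5.08 RPKM in GRP3 and 8.61, 7.88, 0.0730 and 2.70 RPKM in PFMP. As with Nkx2-2, batches 1 and 2 separated the CD140a+ populations from the rest (7.88 to 11.9 RPKM against 0.896 or below), and in batch 4 the BNAP/GRP1 library was highest, at a level below the 95th percentile of olfactory receptor genes in that library. Myrf was 0.679, 0.0860, 0.791 and 5.53 RPKM in NSC, 1.32, 0.0831, 1.23 and 18.3 RPKM in BNAP/GRP1 and 0.737, 0.430, 1.06 and 14.3 RPKM in GRP2/MP3. It was 4.89, 4.73, 1.58 and 12.4 RPKM in GRP3 and 5.73, 1.97, 1.28 and 7.74 RPKM in PFMP. The GRP3 and PFMP libraries of Myrf overlapped those of NSC also without batch 3, and in batch 4 both lay below BNAP/GRP1 and GRP2/MP3. Against NSC, the difference in GRP3 was 1.89 ± 0.92 for Zfp488 (adjusted p = 0.903, and 0.219 with batch as a block) and 1.44 ± 0.91 for Myrf (adjusted p = 1, and 0.197 with the block). In PFMP it was 1.53 ± 0.92 and 1.05 ± 0.91 (adjusted p = 1 for both, and 0.392 and 0.458 with the block).

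Across the comparisons with NSC, 0 of the 7 members passed an adjusted p of 0.05 in any progenitor population in limma without a batch term, although all 7 differences were positive in each. In GRP3, 0.0109% of the 27614 genes tested were called higher, and in PFMP 0.00362%. In BNAP/GRP1 and in GRP2/MP3, 0% were. At an unadjusted p under 0.05 4 members were higher in GRP3 and 3 in PFMP, beside 1.26% and 0.793% of all genes, and 0 were in BNAP/GRP1 and GRP2/MP3, beside 1.87% and 0.873%. The median difference of the 7 members was 2.88 in GRP3 and 2.72 in PFMP, beside 0.05 and -0.20 over all genes tested, and 0.92 in BNAP/GRP1 and 0.40 in GRP2/MP3, beside 0.38 and -0.08. The 4 comparisons share the NSC libraries.

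With batch as a block, 4 members were higher in GRP3 (Olig1, Olig2, Sox10 and Sox8), where 0.275% of all genes were called higher, and 3 in PFMP (Olig1, Olig2 and Sox10), where 0.185% were. No member passed in BNAP/GRP1, with 0.0652% of genes called higher, or in GRP2/MP3, with 0.174%. At an unadjusted p under 0.05 the block called 7 members in GRP3 and 6 in PFMP, beside 4.16% and 3.14% of all genes, and 0 in BNAP/GRP1 and GRP2/MP3, beside 7.31% and 3.00%. With batch 3 left out and no block, 4 members were called in both GRP3 and PFMP (Olig1, Olig2, Sox10 and Nkx2-2), against 0.315% and 0.228% of all genes. Leaving out the GRP3 library of batch 3 alone gave 2 calls in GRP3, Olig1 and Olig2, against 0.0760% of all genes. Olig1, Olig2 and Sox10 thus passed in both CD140a+ populations under either treatment of the batches, and Myrf and Zfp488 under neither.

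**Figure D2:**
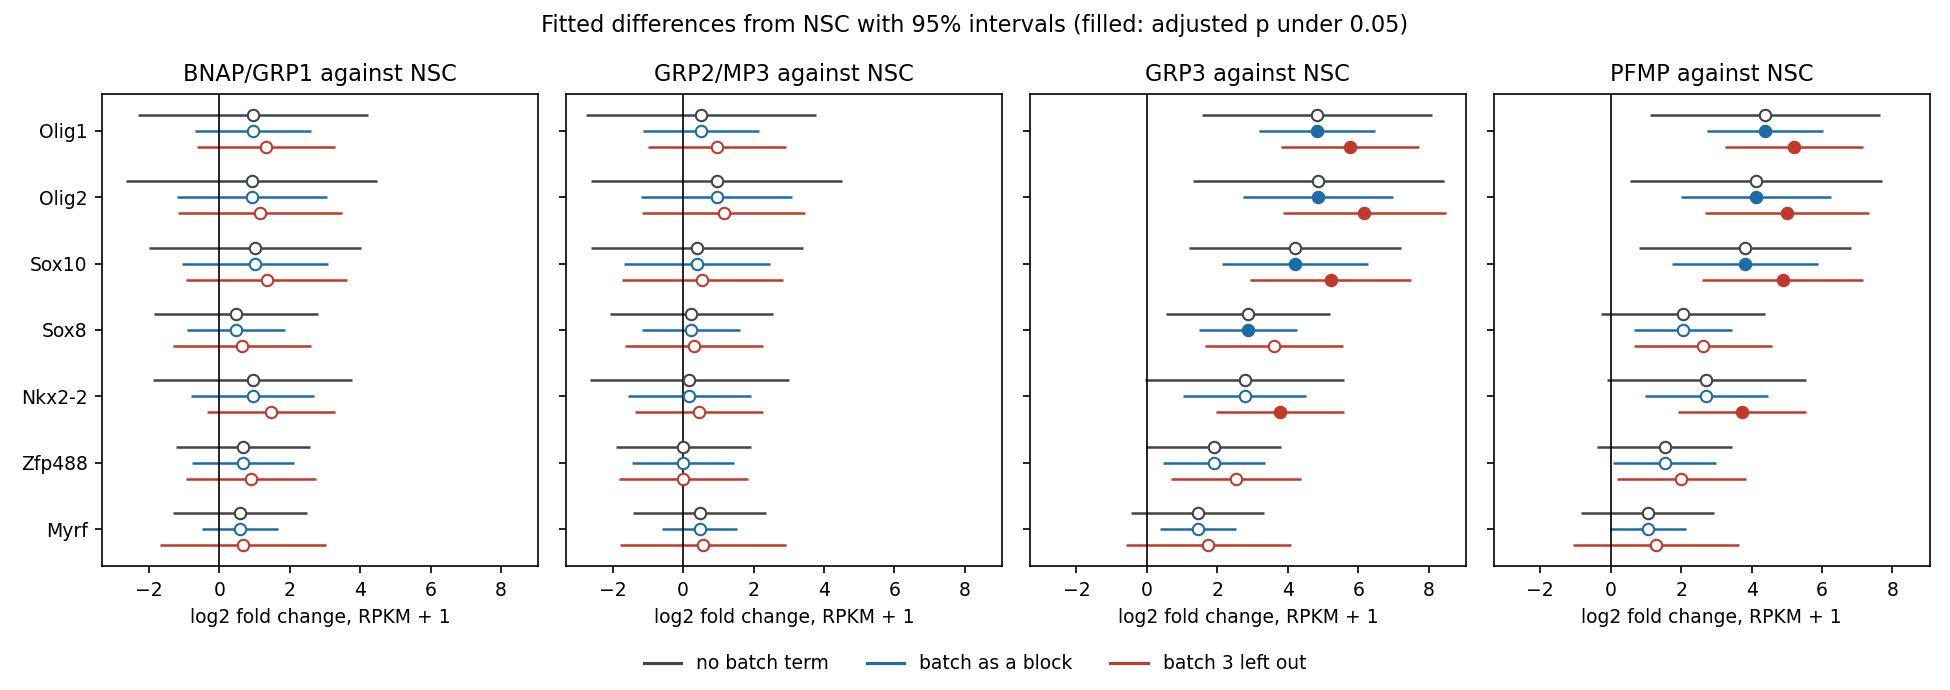
Fitted differences from NSC in log2(RPKM + 1), horizontal axis, for the 7 members, vertical axis, in the 4 progenitor populations, with 95% intervals, from the fit without a batch term, with batch as a block and with batch 3 left out; a filled point has an adjusted p under 0.05. Filled points are present in GRP3 and PFMP and absent in BNAP/GRP1 and GRP2/MP3.

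The size of the difference depended on the batch. For Olig1, GRP3 exceeded NSC by 6.67, 6.17, 1.97 and 4.47 in the 4 batches, and PFMP did by 5.55, 6.72, 1.94 and 3.35. For Olig2 the differences were 6.15, 7.98, 0.93 and 4.40 in GRP3 and 5.97, 6.10, 1.48 and 2.95 in PFMP. Olig1, Olig2, Sox10, Sox8 and Myrf were thus above NSC in all 4 batches in both populations. Batch 3 gave the smallest difference of the 4 for each of them. Some differences were small, as for Sox8 in PFMP of batch 3 (0.33) and Myrf in PFMP of batches 3 and 4 (0.35 and 0.42). The share of all genes above NSC in all 4 batches was not counted. Nkx2-2 differed by 3.63, 5.49, -0.23 and 2.21 in GRP3 and by 3.80, 5.19, -0.30 and 2.17 in PFMP, so that 3 of 4 batches were positive in each. Zfp488 differed by 3.41, 3.47, -0.0074 and 0.70 in GRP3 and by 2.99, 3.06, 0.09 and -0.02 in PFMP. Its NSC level in batch 4, 2.75 RPKM, was close to the 95th percentile of olfactory receptor genes in that library, 2.65 RPKM. For both Nkx2-2 and Zfp488, batches 1 and 2 carried the largest differences.

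**Figure D3:**
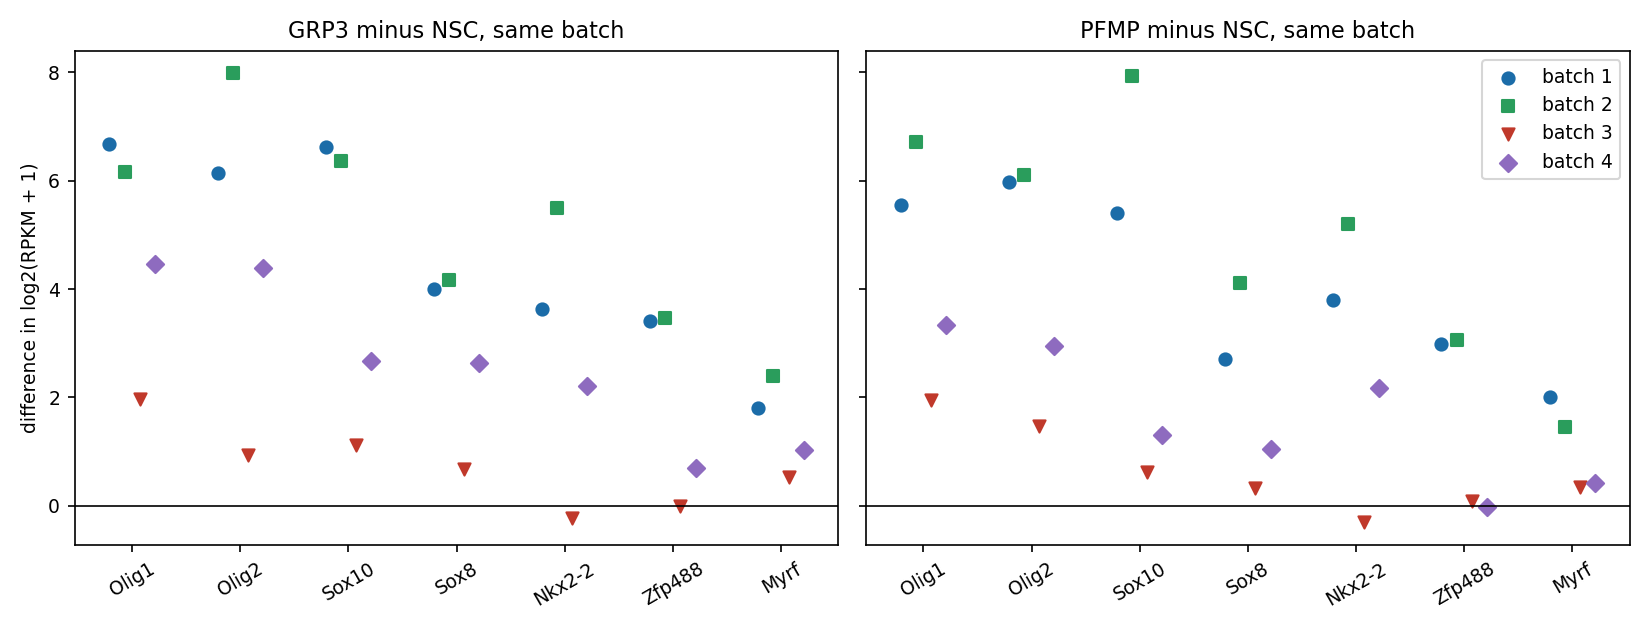
Difference of GRP3 (left) and of PFMP (right) from NSC within a batch in log2(RPKM + 1), vertical axis, for the 7 members, horizontal axis, with a point for each batch. Batches 1 and 2 lie highest, from 1.45 to 7.98, and batch 3 lies between -0.30 and 1.97.

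To set the CD140a+ populations beside the other NG2+ cells, the mean of GRP3 and PFMP was compared with the mean of BNAP/GRP1 and GRP2/MP3. The difference was 3.88 ± 1.11 for Olig1, 3.56 ± 1.21 for Olig2 and 3.30 ± 1.02 for Sox10. It was 2.18 ± 0.96 for Nkx2-2, 2.10 ± 0.79 for Sox8, 1.37 ± 0.65 for Zfp488 and 0.72 ± 0.64 for Myrf. None passed in limma without a batch term (adjusted p from 0.65 to 0.895), where 0% of all genes were called higher. At an unadjusted p under 0.05, 6 members were higher there, as were 1.62% of all genes. With batch as a block, Olig1 (adjusted p = 0.0367), Olig2 (0.0377), Sox10 (0.0377) and Sox8 (0.0415) passed, against 0.442% of all genes. With batch 3 left out, Olig1, Olig2, Sox10 and Nkx2-2 passed, against 0.616%. By batch, the difference was 6.38, 5.22, 0.91 and 1.71 for Olig2 and 1.65, 1.73, 0.18 and -0.67 for Myrf, which was the other way in batch 4, as was Zfp488 at -0.40. The Zfp488 sign there rested on BNAP/GRP1, whose 11.5 RPKM lay below that library's 95th percentile of olfactory receptor genes, 14.4 RPKM. GRP2/MP3 of batch 4, at 2.17 RPKM, lay below PFMP (2.70 RPKM) and GRP3 (5.08 RPKM).

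Ordered by their mean on the log2 scale, GRP3 was highest and PFMP next for all 7 members, and NSC was lowest for all 7. For Zfp488, the means of NSC and GRP2/MP3 were 0.572 and 0.577. Without batch 4, GRP2/MP3 lay below NSC for Olig1, Sox8 and Nkx2-2. BNAP/GRP1 lay above GRP2/MP3 for each member but Olig2, where the means were 2.93 and 2.96. No neighbours in this order passed the test. The difference of PFMP from GRP3 ran from -0.83 (Sox8) to -0.06 (Nkx2-2), with adjusted p = 1 for each member with and without the block. The intervals with the block ran from -2.07 to 1.21 for Olig1 and from -2.87 to 1.40 for Olig2. The difference of PFMP from BNAP/GRP1 was largest for Olig1, at 3.44 ± 1.57 (adjusted p = 0.674, and 0.254 with the block, interval 1.80 to 5.08). That of GRP2/MP3 from BNAP/GRP1 ran from -0.77 (Nkx2-2) to 0.03 (Olig2). No member passed in a direct comparison of any 2 progenitor populations, with or without the block. Of the 27614 genes tested, 0 were called higher and 0 lower in each of these comparisons, so the lack of a call is not particular to the members. For Olig1 in GRP3 against GRP2/MP3 the difference was 4.32 ± 1.57 with adjusted p = 1, and 0.309 with the block.

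Genes known from OPCs had the same sign as the members. The list holds Pdgfra and Cspg4, whose proteins were sorted on. It also holds Lhfpl3 and Matn4, which the paper names among its top genes in GRP3 or PFMP. The counts below were thus partly set by the choice of genes. All 18 genes on the list were tested. All had positive differences from NSC in both GRP3 and PFMP, with medians of 2.11 and 1.88. None passed without a batch term in limma. At an unadjusted p under 0.05, 10 were higher in GRP3 and 7 in PFMP, beside 1.26% and 0.793% of all genes. With batch as a block, 4 were higher in GRP3: Pdgfra, the receptor for platelet-derived growth factor that carries the CD140a gate, by 5.50 (adjusted p = 0.00482), Lhfpl3 by 5.0 (0.00373), Gpr17, a receptor of committed precursors, by 3.92 (0.0267) and Tnr, an extracellular matrix protein, by 2.23 (0.0477). In PFMP, Pdgfra, Lhfpl3 and Gpr17 passed. Over all genes, the block called 0.275% higher in GRP3 and 0.185% in PFMP. Leaving out batch 3 gave 7 in GRP3 and 4 in PFMP, beside 0.315% and 0.228% of all genes. Pdgfra was 512, 803, 3.41 and 171 RPKM in GRP3 and 3.81, 0.731, 1.15 and 3.15 RPKM in NSC, and since its protein was sorted on, this is a check of the gate and not a finding. In batch 3 its 3.41 RPKM in GRP3 stood beside 2.26 RPKM in BNAP/GRP1. Cspg4, which encodes NG2, differed by 3.64 in GRP3 and 3.11 in PFMP (adjusted p = 0.056 and 0.116 with the block), while BNAP/GRP1, which was also sorted as NG2+, held 0.844, 0.249, 0.0362 and 8.49 RPKM. None of the 18 OPC genes passed as higher than NSC in BNAP/GRP1 or GRP2/MP3, with the block or without. Of the 18 differences, 12 and 9 were positive. At an unadjusted p under 0.05 with the block, 2 were lower in GRP2/MP3, beside 2190 of the 27614 genes tested.

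Genes of premyelinating cells and of myelin did not share one sign, and the list holds genes that Myrf and Sox10 are known to switch on. Of 19, 17 were tested and Opalin and Ermn were not. The median difference was -0.24 in GRP3 and 0.51 in PFMP, beside 0.05 and -0.20 over all genes, and 7 and 11 of the 17 were positive. No gene passed without a batch term. At an unadjusted p under 0.05, 3 were higher and 1 lower in GRP3, beside 348 and 1204 of the 27614 genes tested. In PFMP 2 were higher and 1 lower, beside 219 and 1404. With the block, Bcas1, a protein of cells that begin to myelinate, was higher by 3.23 in GRP3 and 3.41 in PFMP (adjusted p = 0.0345 and 0.0234), and so was Itpr2, a calcium channel of the same stage, by 2.32 and 2.07 (0.0228 and 0.0463). Mbp, which encodes myelin basic protein, was 16.4, 13.3, 9.56 and 10.3 RPKM in GRP3, 12.6, 27.8, 8.46 and 93.6 RPKM in PFMP and 14.5, 3.19, 9.40 and 49.5 RPKM in NSC, so that the groups overlapped.

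Among other regulators and cofactors of the lineage, 23 of 24 were tested, and Zfp24 was not analysed here. None passed without a batch term (at an unadjusted p under 0.05, 4 were higher in GRP3 and 2 in PFMP), and the medians were 0.61 and 0.57. With batch as a block, Myt1, a zinc finger factor of precursors, was higher by 3.42 in GRP3 (adjusted p = 0.0407), as were the ETS factors Etv1 by 2.53 (0.0141) and Etv5 by 2.16 (0.0472). Etv1 also passed in PFMP, at 2.62 (0.0103). Sox9, the SoxE factor of stem cells and astrocytes, was lower by a difference of -2.07 in PFMP (0.0474), with levels of 29.1, 39.3, 0.701 and 46.8 RPKM against 81.9, 115, 10.8 and 271 RPKM in NSC, and it also passed as lower in BNAP/GRP1 and GRP2/MP3. In GRP3 its difference of -1.67 did not pass (0.144). Over the 27614 genes tested, the block called 720 lower in PFMP, 558 in BNAP/GRP1 and 803 in GRP2/MP3. Once batch 3 was left out, Etv5 in GRP3 and Sox9 in PFMP and BNAP/GRP1 no longer passed, and Myt1, Etv1 and Sox9 in GRP2/MP3 still did.

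Of 8 inhibitors of oligodendrocyte differentiation, 0 passed without a batch term in limma. At an unadjusted p under 0.05, 2 were lower in each of GRP3 and PFMP, beside 1204 and 1404 of the 27614 genes tested. Id4, which holds basic helix-loop-helix factors away from DNA, was lower with batch as a block in all 4 progenitor populations, by a difference of -4.01 in GRP3 (adjusted p = 0.00164) and -3.89 in PFMP (0.00208). Its level was 520.1, 290.2, 12.4 and 193 RPKM in NSC and 16.9, 33.0, 0.0429 and 8.13 RPKM in GRP3, so that it was lower in GRP3 than in NSC within each batch while Olig2 was higher. Once batch 3 was left out, Id4 still passed in 3 of them and no longer in BNAP/GRP1. Sox6, a partner that holds back SoxE factors, passed as higher in the CD140a+ populations against the other NG2+ cells with the block. The other 7 inhibitors passed in no comparison of a progenitor with NSC under either fit.

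**Figure D4:**
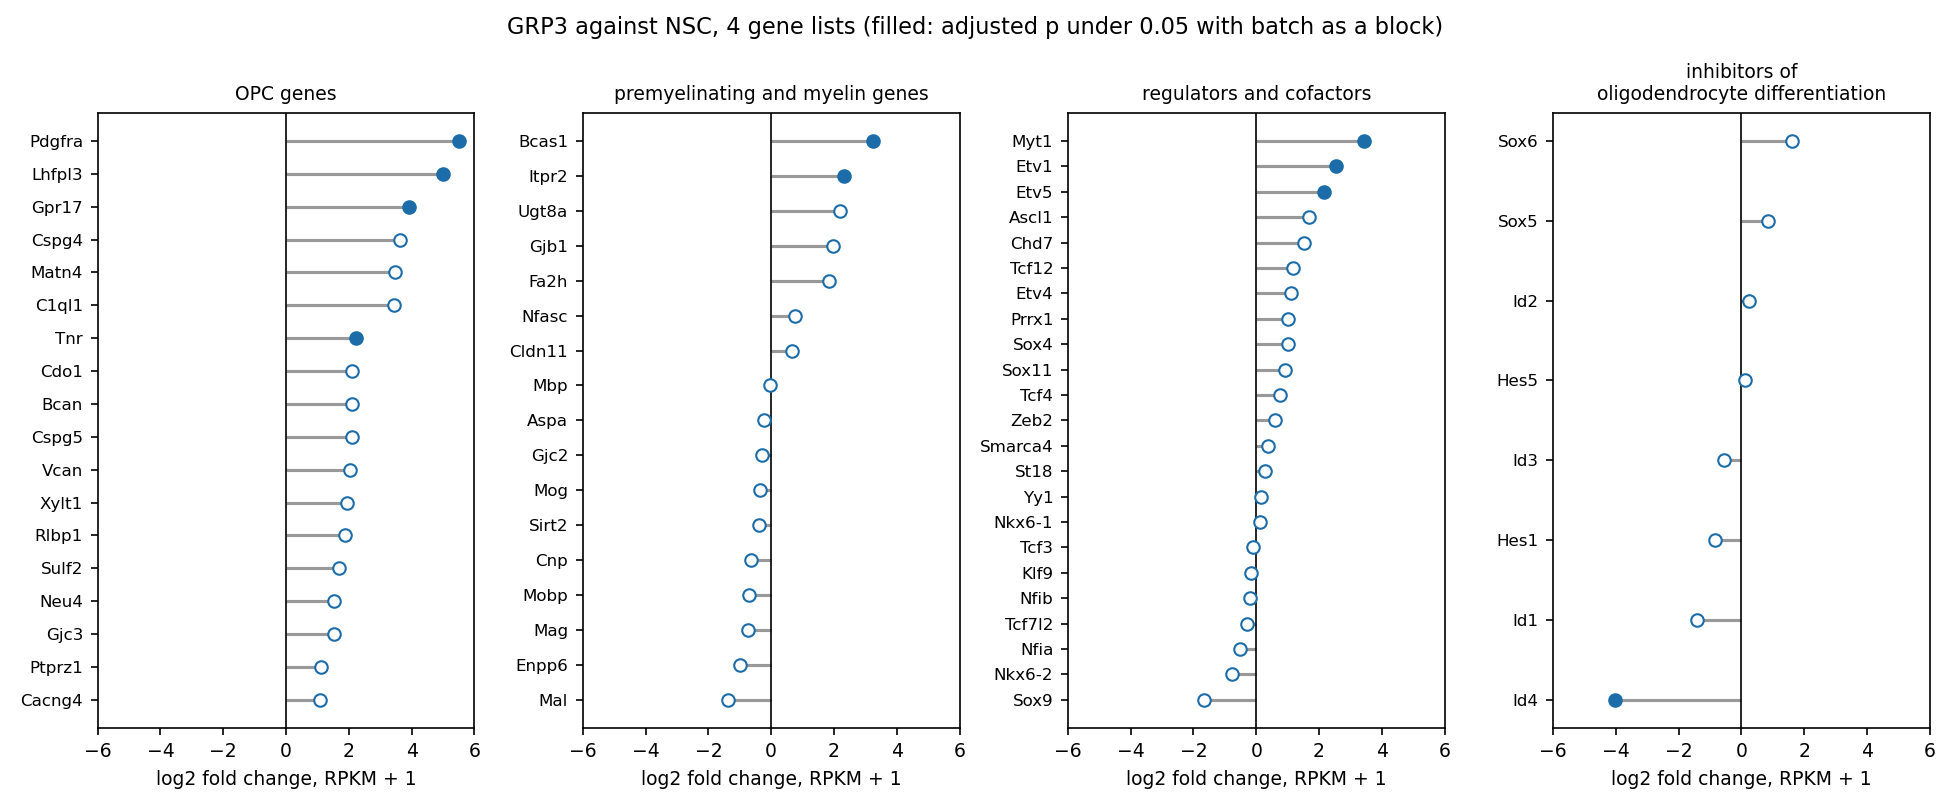
Difference of GRP3 from NSC in log2(RPKM + 1), horizontal axis, for each gene tested of 4 lists, vertical axis; a filled point has an adjusted p under 0.05 with batch as a block, and none passed without it. All 18 OPC genes lie above 0 and 7 of the 17 premyelinating and myelin genes do.

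The genes whose levels were most like those of Olig2 over the 20 libraries were Sapcd2 (Pearson r = 0.982), Zcchc24 (0.980), Nap1l5 (0.974), Lhfpl3 (0.973) and Myt1 (0.969), among 27613 genes on log2(RPKM + 1). Olig1 ranked 9 (0.966), Nkx2-2 27, Sox10 116, Sox8 287, Zfp488 340 and Myrf 3757 (0.509). After batch means were taken out, the 5 nearest were Lhfpl3 (0.976), Zcchc24 (0.972), Gpr17 (0.970), Sapcd2 (0.970) and Sel1l (0.969), Sox8 ranked 21 and Olig1 30, and Myrf rose to rank 166 (0.895). These values describe libraries that share batches and populations, and no test was made of them.

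Genes that overlap members on the other strand showed similar patterns in places. The antisense gene 2810468N07Rik, which shares 329 exonic bases with Sox8, was 114, 102, 1.01 and 70.7 RPKM in GRP3, 41.9, 114, 1.19 and 88.8 RPKM in PFMP and 3.70, 5.67, 0.657 and 23.2 RPKM in NSC, and so was above Sox8 in every library but BNAP/GRP1 and GRP2/MP3 of batch 3, where it was listed at 0. Within the span of Nkx2-2, 6430503K07Rik, which shares no exonic base with Nkx2-2, was 38.0, 37.2, 0 and 9.05 RPKM in GRP3, 1.27, 0, 0 and 0 RPKM in BNAP/GRP1 and 2.80, 5.62, 0.200 and 27.9 RPKM in NSC. Gm15966, with 157 bases shared with Olig1, was highest in BNAP/GRP1 of batch 4, at 21.9 RPKM, and Nkx2-2os, with 278 shared with Nkx2-2, was highest there too, at 5.36 RPKM, below that library's median of olfactory receptor genes. Whether the counting used strand is not given in the sources used here, and without strand, reads from a gene and its antisense partner cannot be told apart.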

How the data were processed

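Deposited RPKM values of 45705 mouse genes were analysed for 20 libraries. Per the paper, poly(A) RNA of the sorted cells was amplified, and the authors used nf-core/rnaseq with FastQC 0.11.9 for quality, cutadapt 3.4 for trimming, STAR 2.6.1 for alignment (GRCm38) and Salmon 1.9.0 for quantification. The authors' own tests used DESeq2 1.26.0. Gene lengths, read totals, strand setting and annotation release are not given in the sources used here. The table has 26 further columns with no values, which were not used.

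Values were taken as log2(RPKM + 1). The 27614 genes that reached 1 RPKM in 4 or more libraries were fitted in R 4.3.3 with limma 3.58.1 (trended prior, 1 mean per population, no batch term, as the paper names none), with Benjamini-Hochberg adjustment over the genes tested and a threshold of 0.05. The fit was tested on simulated data. Fold changes on this scale understate the change of low genes. Counting error cannot be given, since depth is unknown, and the 4 libraries of a population limit the precision.

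The labels give each library a batch number, so the numbers pair the samples. Deviations from the population means correlated within batches (median r of 0.337, 0.262, 0.769 and 0.581 in batches 1 to 4, lowest 0.0341) and not between batches (median -0.204). The fit with batch as a block is therefore given beside the results it changes. The paper describes its replicates as 4 independent experiments and pooled the pups of each litter. The labels do not say which litters or experiments made up a batch, so p-values measure the spread between these samples. The members and the gene lists were chosen with earlier results of these data known. All 7 members were named, with the genes of the lists that passed the threshold and the 5 genes with the highest Pearson r with Olig2, over the libraries as they are and with batch means taken out. Positions came from GENCODE and promoters from RefSeq. Protein sequences were not used here. 1 gene of the lists is not reported here and was left out of its list.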

Additional observations from a re-analysis of the deposited data

Results flagged for a closer look

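In each of 35 groups, 7 members in 5 populations, the highest and the lowest of the 4 libraries were compared with the others on the log2 scale by Dixon's ratio of gap to range at its 95% critical value for 4 libraries. Chance alone would pick out about 1 in 20 groups, and 5 of 35 were picked out. The groups are not independent, since the 7 members were read in the same libraries. No excess over chance can therefore be read from this count. Olig1 was 1.22 RPKM in NSC of batch 3, where the next library stood at 9.47 RPKM. It was 0.926 RPKM in BNAP/GRP1 of batch 3, with the next library at 24.1 RPKM. Sox8 was 0.709 RPKM in GRP3 of batch 3, with the next library at 27.3 RPKM. The other cases were high libraries of batch 4. Myrf was 14.3 RPKM in GRP2/MP3 there, with the next library at 1.06 RPKM, and Zfp488 was 2.75 RPKM in NSC, with the next library at 0.208 RPKM. That NSC level was close to the 95th percentile of olfactory receptor genes in the same library, 2.65 RPKM.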

How the results depend on the processing

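Without a batch term, 0 members were called in each of the 5 comparisons. With the replicate block, which pairs libraries by batch, 4 were called in GRP3 against NSC, 3 in PFMP against NSC and 4 in GRP3 and PFMP against BNAP/GRP1 and GRP2/MP3. The counts with batch 3 left out were 4, 4 and 4, with both choices 5, 4 and 5 (beside 0.525%, 0.398% and 0.992% of all genes called higher), and with batches 1 and 2 alone 6, 6 and 6, all but Myrf (beside 1.83%, 1.45% and 3.31%). Leaving out 1 library at a time gave 0 to 2 calls in GRP3, the 2 without GRP3 of batch 3, and 0 in the other comparisons. In a direct comparison with batch 3 left out and the block, Olig1 passed in GRP3 against GRP2/MP3 (4.81, adjusted p = 0.0391). There 0.0797% of all genes were called higher. Over single members, 735 values kept their direction and side of the threshold, 57 gained a call and 24 turned their sign, all of these in BNAP/GRP1 or GRP2/MP3 against NSC, where no member passed. In GRP2/MP3, Olig1 turned to -0.19 without batch 4, Sox8 to -0.056 without batch 4 and -0.092 with batches 1 and 2 alone, and Nkx2-2 to -0.28 with a pseudocount of 0.1, -0.041 without batch 2, -0.32 without batch 4 and -0.16 with batches 1 and 2 alone. Zfp488 turned to -0.031 without batch 1 and -0.045 without batch 2. With 1 library left out, the difference from NSC in GRP3 ranged from 4.04 to 6.35 for Olig1, 3.82 to 6.78 for Olig2, 3.44 to 5.57 for Sox10 and 2.44 to 3.94 for Sox8, and in PFMP from 3.37 to 5.79 for Olig1, 3.08 to 5.61 for Olig2 and 2.74 to 5.23 for Sox10. GRP2/MP3 ranged from -0.37 to 1.54 for Olig1, -0.48 to 1.10 for Sox10, -0.57 to 0.75 for Sox8, -0.47 to 0.77 for Nkx2-2, -0.32 to 1.00 for Myrf and -0.36 to 0.45 for Zfp488. In BNAP/GRP1 the ranges were -0.25 to 1.00 for Sox8, -0.28 to 1.12 for Myrf and -0.13 to 1.12 for Zfp488, each turning without BNAP/GRP1 of batch 4. The cause was not tested. Leaving out batch 1, 2 or 4 and using batches 1 and 2 alone were chosen after seeing the data. Under a stricter filter (mean of 5 RPKM), Zfp488 and Myrf were not tested. With a pseudocount of 0.1, 4 of the 5 genes most like Olig2 were shared.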

Other observations

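The likeness of members to Olig2 depended on whether batch means were taken out. Myrf moved most, from an r of 0.509 to 0.895, and Sox8 from 0.875 to 0.951, while Olig1 went from 0.966 to 0.946 and Nkx2-2 from 0.951 to 0.924. Pdgfra stood at 0.939 and at 0.965.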
